A study of Mus musculus with 10 samples.

Results

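Smooth muscle cells and pericytes are the mural cells of blood vessels, and 8 of their genes were followed here in the heart: *Acta2*, *Myh11*, *Tagln* and *Cnn1* for the contractile apparatus, and *Pdgfrb*, *Notch3*, *Cspg4* and *Mcam* for the cell surface. The genes were taken by symbol, in a choice made with earlier results of these data known. All 8 were among the 54532 genes of the deposited table. Heart tissue came from 10 mice, 5 given vehicle control and 5 given the MEK1/MEK2 inhibitor trametinib (MEKi; 1 mg/kg, once daily) for 20 weeks from an age of 4 weeks. All 10 mice were *Rit1* M90I/+, carrying one germline copy of the activating allele after a cross to a cytomegalovirus-Cre deleter line, so every cell type of the heart carried it and no wild-type heart was compared. Poly(A)-selected RNA was sequenced once per heart, and the values are fragments scaled to gene length and library size (FPKM). Which part of the heart was taken is not given in the sources used here.

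Smooth muscle cells wrap arteries and arterioles and shorten to set vessel diameter, using a smooth muscle actin and myosin and the actin-binding proteins transgelin and calponin. Transcription of these contractile genes depends on serum response factor (SRF), which binds CArG boxes and is helped by myocardin. Pericytes lie on capillaries inside the basement membrane shared with the endothelium, are recruited by endothelial platelet-derived growth factor B through the PDGF receptor β, and receive Notch ligands from the endothelium through NOTCH3.

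The hearts held from 13647167 to 18474002 fragments in genes, and mitochondrial genes took from 24.0 to 35.0% of them, with the highest share in vehicle heart 3. All 6 cardiomyocyte markers were present in every heart, with *Myh6* from 1696 to 2994 FPKM. The female-specific transcript *Xist* had a mean of 5.86 ± 0.671 FPKM in the MEKi group and did not exceed 0.00662 FPKM in the vehicle group, while the Y-linked *Ddx3y*, *Eif2s3y*, *Uty* and *Kdm5d* were listed at 0 in all MEKi hearts. Of these 5 sex-linked genes, 4 passed the expression filter and all 4 had an adjusted p under 0.05 (limma). The study's methods state that littermates of either sex were used. Sex-linked transcripts and treatment divided the hearts identically, and their parts in any difference given here cannot be told apart. Transcripts of the atria were high in vehicle heart 4, vehicle heart 5 and MEKi heart 2, where the 6 atrial markers summed to between 423 and 898 FPKM, against at most 59.0 FPKM in the other hearts. Differences were therefore also computed without these 3 hearts.

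The question was whether mural genes differed between MEKi and vehicle hearts. None of the 7 genes that could be tested passed the threshold. Of these, *Myh11*, *Cnn1*, *Pdgfrb*, *Notch3*, *Cspg4* and *Mcam*, had a lower fitted level in MEKi hearts, and *Acta2* had a higher one. The comparison was made with limma on log2(FPKM + 0.1) over 12602 genes whose mean reached 0.5 FPKM, a filter that *Tagln* did not pass. Among all genes tested, 0.0794% had an adjusted p under 0.05 (Benjamini-Hochberg), 7.62% had an unadjusted p under 0.05 and 1.64% had groups that did not overlap, and of the 7 members 0 met any of these 3 criteria. A lower fitted level with MEKi was found for 6 of the 7 members and for 47.9% of all genes tested, and the median log2 difference was −0.28 over the members and 0.01 over all genes. The members' median was −0.15 without MEKi heart 3, −0.17 without vehicle heart 2, −0.18 without vehicle heart 1 and −0.17 with a pseudocount of 1. It was −0.37 without vehicle heart 3 and −0.36 without the 3 hearts rich in atrial transcripts. In whole tissue, fewer cells of a type and less RNA per cell cannot be told apart.

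**Figure D1:**
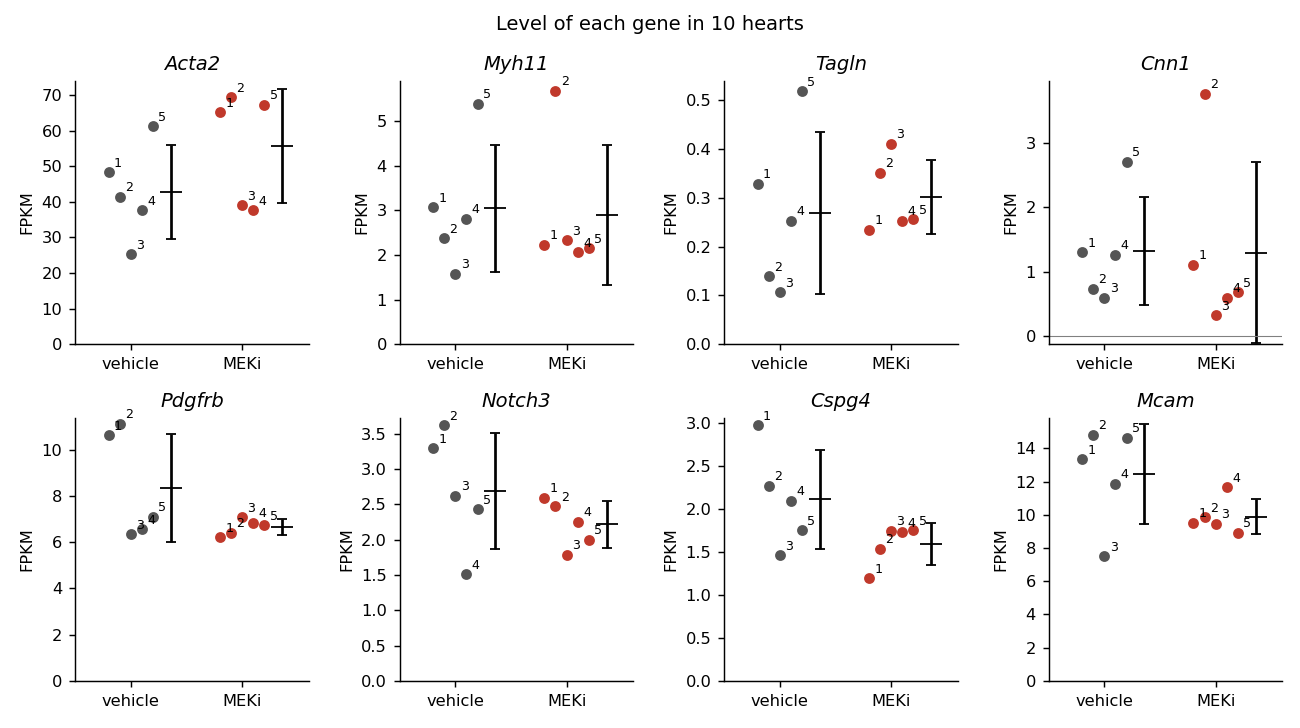
Level of the 8 genes (FPKM, vertical axis of each panel, starting at or below 0) in 5 vehicle hearts (grey) and 5 MEKi hearts (red), with points numbered by replicate and the black mark and bar giving the mean and SD of each group. The groups overlapped for all 8 genes, *Myh11* and *Cnn1* were highest in MEKi heart 2 and vehicle heart 5, and *Pdgfrb* was highest in vehicle hearts 1 and 2.

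*Acta2* (ENSMUSG00000035783; chromosome 19 of GRCm38, 34241090 to 34255336, minus strand) encodes smooth muscle α-actin and was by far the highest of the 8 genes. Vehicle hearts 1 to 5 were at 48.3, 41.4, 25.3, 37.7 and 61.2 FPKM, and MEKi hearts 1 to 5 at 65.2, 69.3, 39.0, 37.6 and 67.3 FPKM. MEKi hearts 1, 2 and 5 lay above all vehicle hearts, whereas MEKi hearts 3 and 4 fell in the middle of the vehicle range. The vehicle mean was 42.8 ± 13.3 FPKM and the MEKi mean 55.7 ± 15.9 FPKM (SD, n = 5 per group), a log2 difference of 0.39 with a 95% interval from −0.16 to 0.93 (SE 0.25, limma adjusted p = 0.757). The difference was 0.21 without vehicle heart 3, the heart with the lowest *Acta2* and the highest mitochondrial share, and 0.45 without the 3 hearts rich in atrial transcripts. Cardiac α-actin, encoded by *Actc1*, is a near-identical protein, and how fragments shared between the actin genes were handled is not given in the sources used here. *Actc1* was at 6626 FPKM in vehicle heart 3, its highest value, where *Acta2* was at its lowest. Its next highest values, 5986 FPKM in MEKi heart 1 and 5851 FPKM in MEKi heart 2, went with *Acta2* at 65.2 and 69.3 FPKM. The relation of *Actc1* to *Acta2* was not tested. The log2 difference of *Actc1* was −0.04 (SE 0.14, limma adjusted p = 0.963).

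Because *Acta2* was the highest of the contractile genes, its promoter is shown beside that of *Cnn1*. RefSeq promoters of GRCm38.p6 were matched for *Acta2*, *Cnn1*, *Cspg4*, *Mcam* and *Notch3*. The last 140 bases before the RefSeq start are printed, at chr19:34255374-34255513 on the minus strand for *Acta2* and at chr9:22099113-22099252 on the plus strand for *Cnn1*. Capitals mark CArG boxes with at most 1 C or G among the 6 central positions, where the consensus has only A or T.
Acta2: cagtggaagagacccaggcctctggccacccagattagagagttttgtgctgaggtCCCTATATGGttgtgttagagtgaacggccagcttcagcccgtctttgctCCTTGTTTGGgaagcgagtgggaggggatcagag
Cnn1: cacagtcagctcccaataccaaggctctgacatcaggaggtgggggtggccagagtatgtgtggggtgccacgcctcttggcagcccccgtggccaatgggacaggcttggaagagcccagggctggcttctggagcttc
In the 250 bases before the start, the *Acta2* promoter held 2 such boxes, at −84 to −75 and at −34 to −25 counted from the RefSeq start, each with 1 C or G among the central positions. Of 32851 mouse promoters searched over the same length, 8.59% held at least 1 such box, 0.670% held 2 or more and 1.47% held the strict consensus, which none of the 5 members matched did. The motif reads alike on both strands. No box was found in this window of *Cnn1*, *Cspg4*, *Mcam* or *Notch3*. For *Cnn1*, *Cspg4* and *Mcam* the RefSeq start lies downstream of the gene start in the deposited table. Part of each of these windows is thus inside the gene, and bases farther upstream were not searched. Among other smooth muscle genes 4 of 14 promoters held a box, those of *Cnn2*, *Myl6*, *Myl9* and *Pcp4l1*. Shares in other lists varied, with a box in 2 of 5 fibroblast, 2 of 6 cardiomyocyte and 2 of 8 endothelial promoters. A box was found in 1 of 14 other pericyte, 0 of 12 Notch pathway and 0 of 2 macrophage promoters. A match describes letters only, and binding was not measured in these hearts.

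*Myh11* (ENSMUSG00000018830; chromosome 16, 14194535 to 14291372, minus strand) encodes the smooth muscle myosin heavy chain, the most specific marker of mature smooth muscle among the members. It was at 3.07, 2.37, 1.58, 2.82 and 5.39 FPKM in vehicle hearts 1 to 5 and at 2.23, 5.68, 2.33, 2.07 and 2.15 FPKM in MEKi hearts 1 to 5. One heart of each group, vehicle heart 5 and MEKi heart 2, stood above the rest, and the other 8 hearts lay between 1.58 and 3.07 FPKM. Group means were 3.05 ± 1.43 and 2.89 ± 1.56 FPKM (SD, n = 5 each), and the log2 difference of −0.08 had an interval from −0.80 to 0.64 (SE 0.33, limma adjusted p = 0.968). It took the value −0.35 without MEKi heart 2 and turned to 0.15 without vehicle heart 5 and to 0.0076 without MEKi heart 4. It was −0.28 without vehicle heart 3, and with any other single heart left out it lay between −0.14 and −0.0063.

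*Cnn1* (ENSMUSG00000001349; chromosome 9, 22099216 to 22109630, plus strand) encodes calponin 1, which binds actin and restrains the myosin ATPase in smooth muscle. Its values were 1.30, 0.735, 0.591, 1.26 and 2.71 FPKM in vehicle hearts 1 to 5 and 1.11, 3.77, 0.324, 0.593 and 0.675 FPKM in MEKi hearts 1 to 5. *Cnn1* spread more widely than the other tested members, with the highest heart 11.7 times the lowest, and MEKi heart 2 and vehicle heart 5 were again the highest. From 13 to 177 fragments per heart lay behind these values. The means of 1.32 ± 0.839 and 1.29 ± 1.41 FPKM (SD, n = 5 each) gave a log2 difference of −0.31 with an interval from −1.50 to 0.88 (SE 0.55, limma adjusted p = 0.931). MEKi heart 2 moved it most, to −0.79 when left out, and without MEKi heart 3 it was 0.0056. It was −0.52 without vehicle heart 3, −0.02 without vehicle heart 5, −0.17 without MEKi heart 4 and −0.12 with a pseudocount of 1.

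*Tagln* (ENSMUSG00000032085; chromosome 9, 45929619 to 45936058, minus strand) encodes transgelin, an actin cross-linking protein abundant in smooth muscle, and was the lowest of the 8 genes. Vehicle hearts 1 to 5 were at 0.329, 0.140, 0.106, 0.253 and 0.518 FPKM, and MEKi hearts 1 to 5 at 0.235, 0.352, 0.411, 0.253 and 0.256 FPKM. Only 3 to 15 fragments per heart lay behind these values, and the MEKi range fell inside the vehicle range. The means were 0.269 ± 0.165 and 0.301 ± 0.0764 FPKM (SD, n = 5 each). In a fit of all 24630 genes with a value above 0, the log2 difference was 0.21 (SE 0.32, limma adjusted p = 0.877).

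Other annotated genes overlap *Tagln*. In GENCODE M21, 67.9% of its 1988 exonic bases, merged over transcripts, are also exonic in another gene, 1241 of them in the antisense gene *Gm48529* and 108 in *Pcsk7*, both on the opposite strand. *Gm48529* itself had at most 7 fragments in a heart. HTSeq is named among the submitters' tools, and whether fragments were assigned by strand, or dropped where 2 genes overlap, is not given. Without strand, a fragment from a shared base cannot be ascribed to either gene. The part of the overlap in the low value was not tested. Of the other members, *Notch3* shared 6.03% of its exonic bases with an antisense gene, *Mcam* shared 0.507%, and the remaining 5 shared none.

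**Figure D2:**
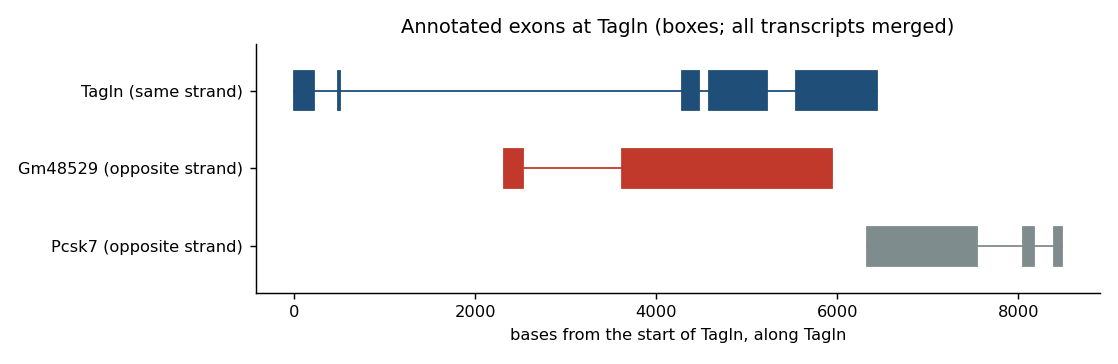
Exons of *Tagln*, *Gm48529* and *Pcsk7* (boxes, transcripts merged; horizontal axis, bases from the annotated start of *Tagln* along its direction of transcription). The long exon of *Gm48529*, on the opposite strand, spans the 2 boxes before the last *Tagln* box and the start of that one, and an exon of *Pcsk7* overlaps its far end.

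*Pdgfrb* (ENSMUSG00000024620; chromosome 18, 61045150 to 61085061, plus strand) encodes PDGF receptor β, the receptor that recruits pericytes and smooth muscle cells to vessels and that fibroblasts also carry. It was at 10.6, 11.1, 6.34, 6.56 and 7.10 FPKM in vehicle hearts 1 to 5 and at 6.22, 6.41, 7.08, 6.85 and 6.73 FPKM in MEKi hearts 1 to 5. Vehicle hearts 1 and 2 were well above all others, while vehicle hearts 3 to 5 covered almost the same range as the MEKi hearts. The 5 MEKi hearts were close to each other, with a coefficient of variation of 5.17% against 27.9% in the vehicle group. Means were 8.35 ± 2.33 and 6.66 ± 0.344 FPKM (SD, n = 5 each), and the log2 difference of −0.28 had an interval from −0.63 to 0.07 (SE 0.16, limma adjusted p = 0.715). The difference was −0.17 without vehicle heart 2, −0.18 without vehicle heart 1 and −0.43 without the 3 hearts rich in atrial transcripts.

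*Notch3* (ENSMUSG00000038146; chromosome 17, 32120820 to 32166880, minus strand) encodes the Notch receptor of arterial smooth muscle and pericytes. Vehicle hearts 1 to 5 were at 3.30, 3.62, 2.62, 1.51 and 2.43 FPKM, and MEKi hearts 1 to 5 at 2.60, 2.47, 1.79, 2.25 and 2.00 FPKM. Vehicle hearts 1 and 2 were again the highest, and vehicle heart 4 the lowest of all 10. The log2 difference between means of 2.70 ± 0.821 and 2.22 ± 0.332 FPKM (SD, n = 5 each) was −0.22 with an interval from −0.68 to 0.23 (SE 0.21, limma adjusted p = 0.829). Single hearts moved it both ways, to −0.11 without vehicle heart 2, −0.14 without vehicle heart 1 and −0.41 without vehicle heart 4. Without the 3 hearts rich in atrial transcripts, vehicle heart 4 among them, it was −0.54 (limma adjusted p = 0.743).

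*Cspg4* (ENSMUSG00000032911; chromosome 9, 56865033 to 56899870, plus strand) encodes the proteoglycan NG2, which marks pericytes and is also made by some glia. It was at 2.97, 2.27, 1.46, 2.09 and 1.76 FPKM in vehicle hearts 1 to 5 and at 1.19, 1.54, 1.75, 1.73 and 1.75 FPKM in MEKi hearts 1 to 5. Vehicle heart 3 lay among the MEKi hearts and vehicle heart 5 just above the highest of them. Its means of 2.11 ± 0.574 and 1.59 ± 0.240 FPKM (SD, n = 5 each) differed by −0.36 on the log2 scale, with an interval from −0.76 to 0.04. This was the smallest unadjusted p of the members, 0.0727 (limma adjusted p = 0.673), and ranked 1357 among the 12602 genes. Without vehicle heart 1, where *Cspg4* was highest, the difference was −0.23.

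*Mcam* (ENSMUSG00000032135; chromosome 9, 44134469 to 44142727, plus strand) encodes CD146, an adhesion molecule of pericytes and smooth muscle that endothelial cells carry too. Vehicle hearts 1 to 5 were at 13.4, 14.8, 7.50, 11.9 and 14.6 FPKM, and MEKi hearts 1 to 5 at 9.53, 9.85, 9.47, 11.7 and 8.93 FPKM. Vehicle heart 3 was the lowest of the 10, and the other 4 vehicle hearts were above every MEKi heart. Means were 12.4 ± 3.01 and 9.89 ± 1.05 FPKM (SD, n = 5 each), a log2 difference of −0.29 with an interval from −0.67 to 0.08 (SE 0.17, limma adjusted p = 0.722). Without vehicle heart 3 it was −0.46 (limma adjusted p = 0.277, the lowest adjusted p of any member under any alternative).

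As levels per length, the 8 genes were ordered *Acta2*, *Mcam*, *Pdgfrb*, *Myh11*, *Notch3*, *Cspg4*, *Cnn1* and *Tagln* by the mean over 10 hearts. The first 4 of these held their order in all 10 hearts, *Acta2* above *Mcam*, *Mcam* above *Pdgfrb* and *Pdgfrb* above *Myh11*. *Myh11* and *Notch3* could not be ordered, since each was the higher in 5 hearts. *Notch3* exceeded *Cspg4* in 9 hearts, *Cspg4* exceeded *Cnn1* in 8 and *Cnn1* exceeded *Tagln* in 9. *Acta2* thus had a mean of 49.2 FPKM where *Myh11*, its partner in the contractile apparatus, had 2.97 FPKM.

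**Figure D3:**
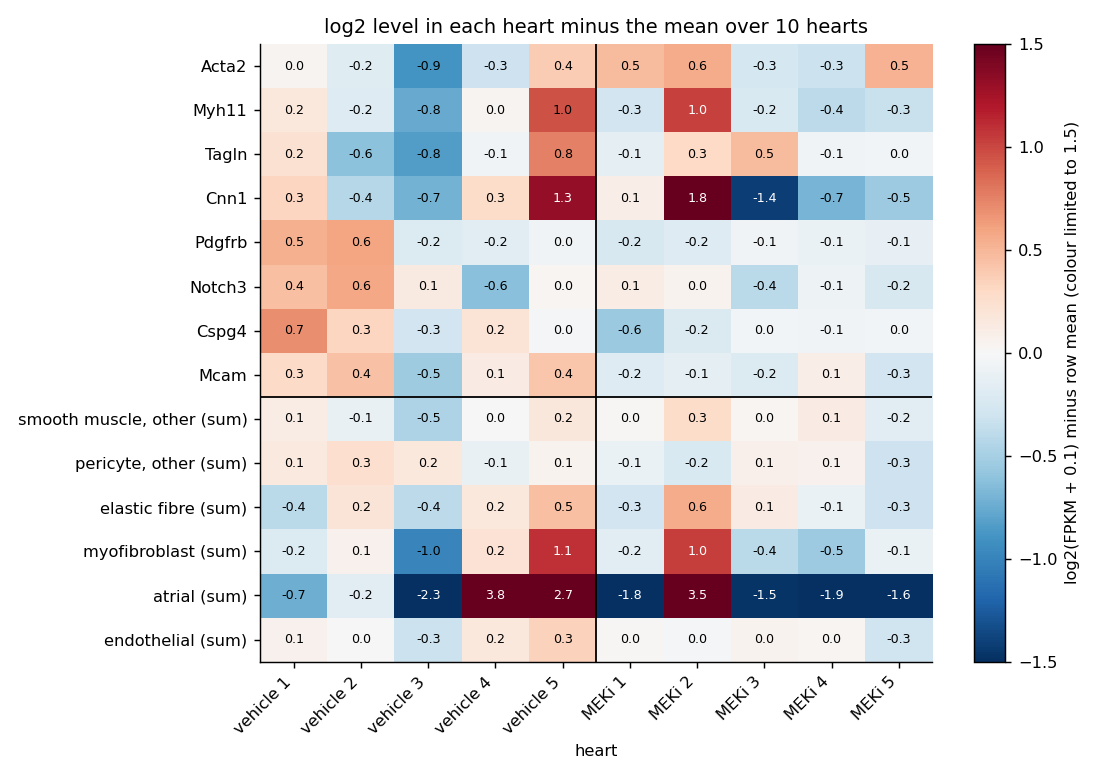
Level of the 8 genes and of 6 summed gene lists (rows) in each heart (columns), as log2(FPKM + 0.1) minus the row's mean over 10 hearts, printed in each cell, with colour limited to 1.5 in either direction. *Myh11* and *Cnn1* are high in vehicle heart 5 and MEKi heart 2, as are the elastic fibre and myofibroblast sums, while *Pdgfrb* and *Notch3* are high in vehicle hearts 1 and 2.

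*Myh11* and *Cnn1* were highest in vehicle heart 5 and MEKi heart 2, and *Pdgfrb* and *Notch3* in vehicle hearts 1 and 2. The division was not complete: vehicle heart 1 ranked 3 for *Myh11* and *Cnn1*, and vehicle heart 5 ranked 3 for *Pdgfrb*. Across the 10 hearts, *Myh11* and *Cnn1* gave the closest relation of 28 pairs of members (Pearson's r = 0.89, permutation test, p = 0.00128, adjusted p = 0.0273; Spearman's rho = 0.85, p = 0.00262, adjusted p = 0.0675). Without the 2 hearts farthest from the median of *Myh11*, r was 0.57, and these were vehicle heart 5 and MEKi heart 2. *Pdgfrb* and *Cspg4* followed (r = 0.82, permutation test, p = 0.00195, adjusted p = 0.0273; rho = 0.83, p = 0.00482, adjusted p = 0.0675; r = 0.62 without 2 hearts). The other 26 pairs had an adjusted p above the threshold. After each group's mean was subtracted, the median r was 0.73 over the 6 pairs of contractile genes, 0.55 over the 6 pairs of surface genes and 0.11 over the 16 pairs between them. Groups of 5 hearts are too few for a correlation of their own.

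The genes most like the contractile members were found from the mean z-score of these 4 genes, each centred within its group, among 10698 other genes whose mean reached 1 FPKM. The 5 nearest were *Pgghg* (r = 0.96), *Comp* (r = 0.94), *Lad1* (r = 0.94), *Myl9* (r = 0.93) and *Sertad4* (r = 0.93), over 10 hearts. *Myl9* encodes a regulatory light chain of smooth muscle myosin, and *Comp* an extracellular matrix protein of tendon and cartilage. For the surface members the nearest were *Sssca1* (r = 0.95), *Ppcdc* (r = 0.94), *Zfp12* (r = 0.94), *Ndufa4l2* (r = 0.93), a gene of brain and heart pericytes, and *Naxd* (r = 0.92). These correlations describe 10 hearts that share treatment groups and dissection, and the nearest of many genes are high by selection.

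Genes from the wider mural lists had no part in the z-scores. Of 12 other smooth muscle genes, 6 had a higher r with the contractile than with the surface members, and of 15 other pericyte genes, 13 had a higher r with the surface members. For the smooth muscle genes the median r was 0.34 with the contractile members and 0.22 with the surface members, and *Myl9*, *Tpm2* (r = 0.91) and *Mylk* (r = 0.80), all of the contractile apparatus, were nearest to the contractile members, while *Aoc3*, *Cnn2* and *Ppp1r14a* were nearer to the surface members. For the pericyte genes the median r was 0.08 with the contractile and 0.62 with the surface members. *Ndufa4l2*, the potassium channel gene *Kcnj8* (r = 0.89), *Vtn* (r = 0.86) and *Higd1b* (r = 0.84) were nearest to the surface members, while *Anpep* and *Gucy1a1* were nearer to the contractile members. *Abcc9* and *Art3* had a negative r with both, of −0.85 and −0.73 with the contractile members and −0.10 and −0.29 with the surface members. These 2 genes are counted among the 13. *Rgs5*, the most abundant of the pericyte list, had an r of only 0.07 with the surface and −0.24 with the contractile members. The matching share over all genes was not computed. A higher r with the surface members was also found for 5 of 6 cardiomyocyte markers and 6 of 8 genes of SRF and its partners. It was found for 3 of 10 endothelial, 1 of 8 fibroblast and 0 of 5 macrophage markers. Over all 10698 genes the median r was −0.03 with the contractile and 0.02 with the surface members.

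**Figure D4:**
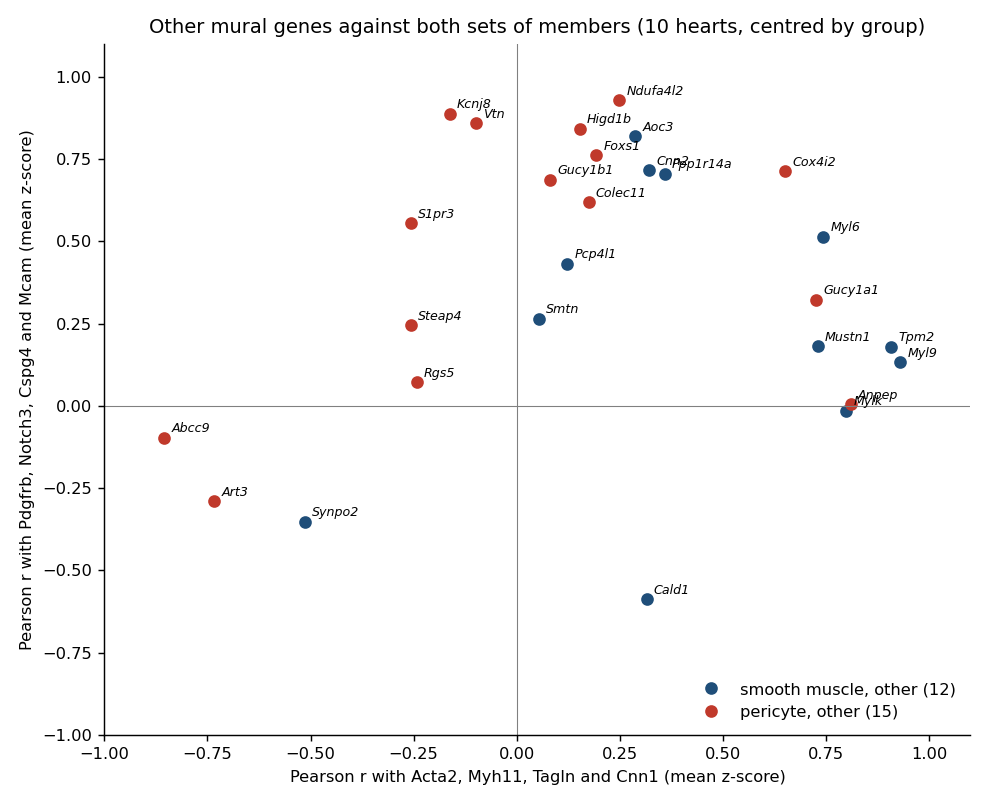
Pearson r over 10 hearts, after subtracting each group's mean, of 12 other smooth muscle genes (blue) and 15 other pericyte genes (red) with the mean z-score of *Acta2*, *Myh11*, *Tagln* and *Cnn1* (horizontal axis) and of *Pdgfrb*, *Notch3*, *Cspg4* and *Mcam* (vertical axis). *Myl9* and *Tpm2* lie at the right near the horizontal line, and *Kcnj8* and *Vtn* at the top near the vertical line.

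Markers of several other tissues and cell types followed the contractile members as closely as the smooth muscle list did, or more closely. The 6 cardiomyocyte markers did not, with a median r of −0.03 with the contractile and 0.34 with the surface members. The median r with the contractile members was 0.48 over 8 fibroblast markers, 0.43 over 5 macrophage markers and 0.41 over 10 endothelial markers, against 0.34 over the smooth muscle genes. With the surface members these medians were −0.07, 0.12 and 0.07. All 5 atrial markers with at least 1 FPKM had an r between 0.72 and 0.86 with the contractile members, against −0.05 to 0.07 with the surface members. Vehicle heart 4 had the highest atrial sum, 898 FPKM, and *Myh11* at 2.82 FPKM, within the range of hearts with few atrial transcripts. Vehicle heart 5 and MEKi heart 2, also rich in atrial transcripts, had the highest *Myh11*, at 5.39 and 5.68 FPKM. Elastic fibre genes, which large vessels and valves make, summed to 36.2 FPKM in vehicle heart 5 and 38.8 FPKM in MEKi heart 2, the highest of each group, and the 4 genes had a median r of 0.60. *Comp* and *Postn*, the 2 myofibroblast markers with at least 1 FPKM, had r values of 0.94 and 0.82, and the sum of the 4 was 19.1 FPKM in vehicle heart 5 and 18.3 FPKM in MEKi heart 2, against at most 10.3 FPKM in other hearts. The parts of these tissues and cell types in the contractile values were not tested.

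Among 16 further genes listed for smooth muscle, 15 passed the filter and 0 passed the threshold over all genes, 12 lower and 3 higher in MEKi hearts, with a median log2 difference of −0.15. The light chain gene *Myl9* had means of 24.6 ± 13.2 (vehicle) and 21.0 ± 11.5 FPKM (MEKi), *Myl6* at 53.7 ± 15.7 and 46.6 ± 7.08 FPKM, and *Smtn*, which encodes smoothelin, at 24.9 ± 1.80 and 22.0 ± 3.75 FPKM (SD, n = 5 each). *Smtn* shares 16.3% of its exonic bases with a gene on the opposite strand. *Pcp4l1*, which encodes a small calmodulin-binding protein, was the one gene of the list whose groups did not overlap, at 81.1 ± 5.17 and 117 ± 12.9 FPKM (log2 difference 0.53, SE 0.09, limma adjusted p = 0.0974). Groups did not overlap for 1.64% of all genes tested. The r of *Pcp4l1* with the contractile members was 0.12.

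Of 18 further pericyte genes, 16 passed the filter and 0 passed the threshold, 11 lower and 5 higher in MEKi hearts, with a median log2 difference of −0.20. *Rgs5*, which encodes a regulator of G protein signaling and was the most abundant, had means of 111 ± 13.6 (vehicle) and 91.1 ± 21.3 FPKM (MEKi; log2 difference −0.31, SE 0.15, limma adjusted p = 0.666). *Abcc9* and *Kcnj8*, which together encode the vascular ATP-sensitive potassium channel, had log2 differences of −0.11 and −0.19. The highest *Abcc9* value, 34.3 FPKM, came from vehicle heart 3, where the cardiomyocyte marker *Ryr2* was also highest, at 27.6 FPKM. The cell type behind the *Abcc9* transcripts was not tested. *Higd1b*, named after its values were seen, had the largest difference of the list, at 11.1 ± 2.46 and 7.01 ± 0.809 FPKM (SD, n = 5 each; log2 difference −0.63, SE 0.15, limma adjusted p = 0.314).

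Among SRF and its partners, which regulate the contractile genes, no gene passed the threshold. All 8 of the list passed the filter, 4 had a higher and 4 a lower fitted level with MEKi, and the median log2 difference was 0.03. *Srf* had means of 26.1 ± 6.04 (vehicle) and 27.5 ± 4.16 FPKM (MEKi), and *Myocd*, which encodes myocardin and was named for that role, at 2.37 ± 1.00 and 2.51 ± 0.666 FPKM (SD, n = 5 each; log2 difference 0.13, SE 0.25, limma adjusted p = 0.938). The highest *Myocd* value, 4.01 FPKM, came from vehicle heart 3, the heart with the lowest *Acta2* and *Myh11*. The cardiomyocyte marker *Ryr2* was also highest in that heart, at 27.6 FPKM. Which cell type the *Myocd* transcripts came from was not tested. *Klf4*, whose product represses smooth muscle genes, was at 13.9 ± 3.67 and 11.3 ± 1.83 FPKM (log2 difference −0.27, SE 0.18, limma adjusted p = 0.757).

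The ligands and targets around *Notch3* and *Pdgfrb* also gave no gene past the threshold. All 16 Notch pathway genes were tested, 12 with a lower and 4 with a higher fitted level in MEKi hearts, with a median log2 difference of −0.16. The target *Hes1* had means of 12.2 ± 1.33 (vehicle) and 9.56 ± 1.02 FPKM (MEKi; log2 difference −0.35, SE 0.11, limma adjusted p = 0.456). *Hey1* and *Heyl*, named after their values were seen, differed among themselves, with log2 differences of −0.74 (SE 0.16, limma adjusted p = 0.254) for *Hey1* and −0.10 (SE 0.14, limma adjusted p = 0.905) for *Heyl*, the target found in mural cells. The endothelial ligand *Dll4* was at 7.26 ± 1.44 and 5.96 ± 1.67 FPKM. Of 5 PDGF genes, 3 were lower and 2 higher, with a median of −0.23. *Pdgfb*, the endothelial ligand of PDGF receptor β, was at 11.5 ± 1.45 and 8.30 ± 1.23 FPKM (SD, n = 5 each; log2 difference −0.47, SE 0.13, limma adjusted p = 0.395), with the groups overlapping between 9.23 and 9.37 FPKM. *Pdgfa* shares 26.1% of its exonic bases, and *Nrarp* of the Notch list 79.4%, with genes on the opposite strand.

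**Figure D5:**
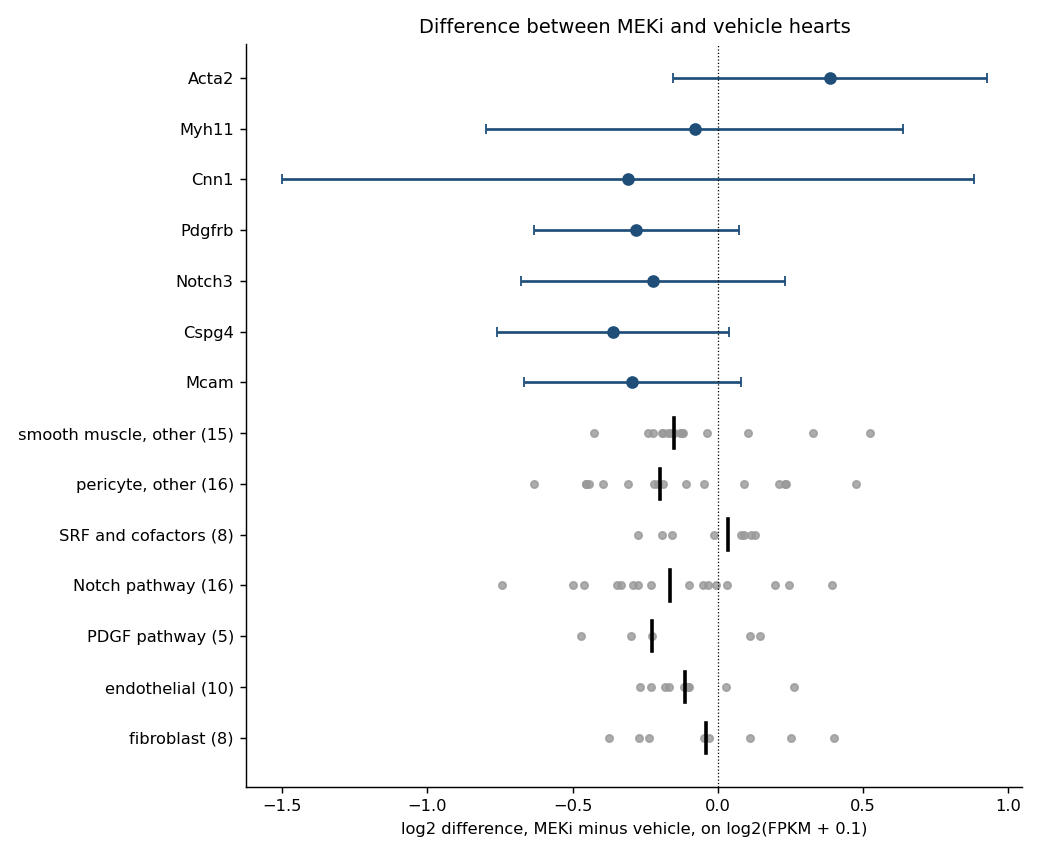
Log2 difference between MEKi and vehicle hearts (horizontal axis, MEKi minus vehicle on log2(FPKM + 0.1)) for the 7 members tested, with 95% intervals, and for each tested gene (grey points) and the median (black bar) of 7 gene lists, with the number of genes in brackets. All 7 intervals include 0, and *Cnn1* has the widest, from −1.50 to 0.88.

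Markers of neighboring cell types are given for comparison, with 0 genes past the threshold in each of the following lists. The 10 endothelial markers had a median log2 difference of −0.11, 8 of them lower, and summed to between 156 and 248 FPKM in vehicle hearts and between 158 and 201 FPKM in MEKi hearts, with the lowest sum in vehicle heart 3. Against this sum, *Mcam* was 6.07 ± 1.08% with vehicle and 5.25 ± 0.510% with MEKi, *Pdgfrb* was 4.18 ± 1.28% and 3.55 ± 0.415%, and *Acta2* was 20.7 ± 3.78% and 30.1 ± 10.5% (SD, n = 5 each), with overlapping ranges for all 3. Fibroblast markers had 5 of 8 lower and a median of −0.04, myofibroblast markers 1 of 2 lower and −0.11, macrophage markers 5 of 5 lower and −0.35, and elastic fibre genes 2 of 4 lower and 0.03. Cardiomyocyte markers had 1 of 6 lower and a median of 0.16, glial markers 0 of 3 lower and 0.21, and atrial markers 5 of 5 lower and −2.23, the last with hearts of both kinds in each group.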

How the data were processed

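The authors deposited FPKM per gene, with 1 column per heart and with gene length, coordinates and biotype. The submitters' processing notes name fastp, STAR 2.5, HTSeq 0.6.1 and the build mm10. Gene coordinates are those of the deposited table. The product of FPKM and length moved in whole steps for 100% of values in each heart (tolerance 0.01), and the steps were read as fragments. Samples were grouped by the treatment label. limma 3.58.1 (R 4.3.3) was fitted to log2(FPKM + 0.1) (eBayes with a mean-variance trend, two-sided, Benjamini-Hochberg adjustment over 12602 genes, threshold 0.05). The fit was tested on simulated counts that all had the same dispersion, so the range of spread between genes in these hearts was not covered. Correlations used 100000 resamples. Summaries were made in Python 3.11.15. Exon overlap was read from GENCODE M21 (GRCm38). The members and gene lists were chosen with earlier results of these data known. Named are the members, up to 4 genes of highest mean in a list, genes past the threshold, genes whose groups do not overlap, and the genes most like the members. Other genes were named after their values were seen. The labels call the hearts biological replicates. Deviations of same-numbered hearts from their group means had correlations from −0.15 to −0.02. Hearts with different numbers were not compared in this way, so whether the numbers pair the hearts was not decided.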

Additional observations from a re-analysis of the deposited data

Results flagged for a closer look

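In 16 groups of 5 hearts, 1 for each member and treatment, 2 had a heart far from the rest by the gap to its neighbor over the whole range (Dixon's 95% critical value), where chance gives about 0.8. Both were MEKi heart 2, with *Myh11* at 5.68 FPKM (other MEKi hearts from 2.07 to 2.33 FPKM) and *Cnn1* at 3.77 FPKM (others from 0.324 to 1.11 FPKM). This heart also had the highest atrial, elastic fibre and myofibroblast sums of its group. Their part in these values was not tested.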

How the results depend on the processing

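Under 24 alternatives, 10 of which left out 1 heart each, no member passed the threshold, and 161 of 164 member values kept their direction. The exceptions came with 1 heart left out, where the log2 difference of *Myh11* ranged from −0.35 to 0.15 and that of *Cnn1* from −0.79 to 0.0056. The number of genes past the threshold over all genes was 10, and it was 2 where the mean had to reach 5 FPKM (5161 genes tested), 18 with array weights, 4 with the replicate block, 5 without the 3 hearts rich in atrial transcripts, 0 without X, Y and mitochondrial genes (limma, 924 with an unadjusted p under 0.05), and from 5 to 13 with 1 heart left out. The lowest was without vehicle heart 2. The replicate block changed no call among the members. The cause of these changes was not tested. *Tagln* could be tested only without the filter. Depth limits *Tagln*, with 3 to 15 fragments per heart, and *Cnn1*, with 13 to 177.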
